A study of Homo sapiens with 24 samples.

Results

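HIP1R and HIP1 are the paired adaptor proteins that join clathrin coats to the actin cytoskeleton, and they are described here together with the clathrin chains they serve, the light chains CLTA and CLTB and the heavy chain CLTC. The members were every probe that carries one of these 5 gene names on a 2-colour Agilent whole-genome array, which gave 10 of its 41000 probes and 5 of its 30142 gene names. HIP1R was selected on its measured log2 ratio of siFOXP1 over siCtrl and on how that ratio varied between the lines, so its ratios for each line and siRNA and its siCtrl levels are a description with no test, while the other 4 genes were taken in by name. FOXP1, a forkhead transcription factor, was silenced with siFOXP1_308 (siFOXP1 #1) or siFOXP1_309 (siFOXP1 #2) in the germinal-centre B-cell-like (GCB) lymphoma lines DB and K422 and the activated B-cell-like (ABC) lines HBL-1 and OCI-Ly3. RNA taken 48 h later was labelled with Cy3 and set, on the same array, against Cy5-labelled RNA of the same line transfected with the control siRNA siCtrl, in 3 replicates for each line and siRNA, 24 arrays in all. Each line stands for its subtype as 1 of 2 long-established cultures, and no dyes were swapped, so within a line any preference of a probe for 1 dye cannot be told apart from the response to silencing.

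HIP1R and HIP1 bind membrane phosphoinositides through an amino-terminal domain, clathrin light chains through a central coiled coil and filamentous actin through a talin-like carboxy terminus. HIP1, first found as a partner of huntingtin, also binds AP-2, the adaptor that gathers cargo at the plasma membrane, while HIP1R binds cortactin and restrains actin assembly at the coated pit. Clathrin itself is built of heavy chains, each with a light chain that is encoded by CLTA or CLTB, and in B cells this machinery takes up the antigen receptor, transferrin and other surface cargo.

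The sequences of the HIP1 and CLTB probes are shown because the probes of each gene gave different readings. The brighter HIP1R probe, A_23_P398294, lies at chr12:121913400-121913459 of hg18 on the plus strand and starts at base 4412 of NM_003959. The dimmer probe A_24_P229164 lies upstream at chr12:121912503-121912562, from base 3515. HIP1 was read by a probe from base 59 of NM_005338, at chr7:75206097-75206156 on the minus strand, by a probe from base 2977 whose ends span an intron (chr7:75006644-75009189), and by a pair of dimmer probes. CLTB was read by a probe listed for both of its transcripts (chr5:175752402-175752461, minus strand) and by a probe listed only for NM_007097, the longer transcript (chr5:175752551-175757217), whose extra exons are best known from neurons. CLTA (chr9:36201781-36201840) and CLTC (chr17:55126681-55126740) had 1 probe each. The probe letters follow as the array files give them.
HIP1 A_24_P916314: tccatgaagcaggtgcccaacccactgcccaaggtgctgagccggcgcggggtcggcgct
HIP1 A_23_P71033: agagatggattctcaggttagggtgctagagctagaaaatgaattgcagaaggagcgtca
CLTB A_23_P60610: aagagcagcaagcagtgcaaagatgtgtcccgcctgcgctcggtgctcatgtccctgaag
CLTB A_23_P252671: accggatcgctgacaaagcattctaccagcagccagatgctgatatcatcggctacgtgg

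The promoter windows of HIP1R are shown because HIP1R is the member with mean log2 ratios above 0.5, and FOXP1 belongs to the factors that bind forkhead letters. RefSeq windows of GRCh38.p14 run from 250 bases before to 50 after a start site, and HIP1R has 2 of them, both on the plus strand. Capitals mark the 5-letter core TGTTT or its reverse AAACA, searched on both strands.
HIP1R window 1, chr12:122834498-122834797: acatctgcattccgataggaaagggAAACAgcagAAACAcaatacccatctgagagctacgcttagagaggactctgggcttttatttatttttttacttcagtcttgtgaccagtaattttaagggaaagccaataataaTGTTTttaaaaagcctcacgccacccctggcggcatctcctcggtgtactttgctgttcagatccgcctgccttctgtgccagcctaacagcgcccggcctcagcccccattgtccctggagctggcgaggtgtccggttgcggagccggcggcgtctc
HIP1R window 2, chr12:122835207-122835506: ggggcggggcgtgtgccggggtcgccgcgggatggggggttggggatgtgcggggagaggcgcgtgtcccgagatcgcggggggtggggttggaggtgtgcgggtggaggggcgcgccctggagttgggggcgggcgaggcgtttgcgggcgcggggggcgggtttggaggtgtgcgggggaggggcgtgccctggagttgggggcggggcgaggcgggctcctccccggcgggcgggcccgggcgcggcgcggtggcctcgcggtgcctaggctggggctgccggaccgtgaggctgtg
The first window was 51.7% G or C and held 3 cores, starting at -225, -216 and -109 from the start site. The second was 80.0% G or C and held none, against a median of 58.7% G or C over the 35116 windows in the table. The longer forkhead letters TGTTTAC (reverse GTAAACA), which contain the core, were in none of the 10 windows of the members and in 3.42% of all windows. The core was in 4 of the 10, in 1 window each of HIP1R, CLTA, CLTB and CLTC and in none of the 3 of HIP1, against 44.4% of all windows. A match is a run of letters and not a measured binding site.

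FOXP1 was lower on all 24 arrays, with a log2 ratio of siFOXP1 over siCtrl between -2.71 and -0.83. In at least 1 channel, from 57.3% up to 64.5% of an array's probes were well above background, as the scanner software judges it. All 5 B-cell markers checked were well above background in the siCtrl channel of every array. The 4 GCB markers were so on all 6 arrays of DB and of K422 and the 4 ABC markers on all 6 of HBL-1 and of OCI-Ly3, with 1 of 4 ABC markers so in each GCB line and 2 of 4 GCB markers in each ABC line. Of 3 T-cell markers, all were so in K422, while CD3D and CD3G were so on no array of the other lines. The third, CD3E, was so on all 6 arrays of HBL-1 and of OCI-Ly3 and on 2 of DB. Of 3 myeloid markers, CSF1R was so on all 6 arrays of every line. CD14 was so on 6 arrays of K422, 5 of HBL-1, 3 of OCI-Ly3 and 0 of DB, and LYZ on 1 array of DB alone. DB and OCI-Ly3 shared 1 scanning session and K422 and HBL-1 the other, so lines were compared within a session, and any order over all 4 lines is a description.

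HIP1R was higher after FOXP1 silencing on every array of HBL-1, OCI-Ly3 and K422 and showed no steady direction in DB. With the brighter probe, the log2 ratios in HBL-1 were 1.08, 0.70 and 0.95 with siFOXP1 #1 and 1.36, 1.07 and 1.26 with siFOXP1 #2. In OCI-Ly3 they were 0.49, 0.39 and 0.62 with #1 and 0.63, 0.48 and 0.69 with #2. With this probe the 6 arrays of HBL-1 lay just above the 6 of OCI-Ly3, with no overlap, a description that crosses the scanning sessions. In K422 the ratios were 0.44, 0.37 and 0.49 with #1 and 0.18, 0.17 and 0.21 with #2. In DB they were -0.14, -0.14 and 0.14 with #1 and -0.07, 0.41 and 0.01 with #2, so that 3 of 6 arrays were above 0. The highest arrays of K422 and DB overlapped the lowest of OCI-Ly3.

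The mean log2 ratio of HIP1R was 1.07 ± 0.23 (SD, n = 6 arrays) in HBL-1, 0.55 ± 0.12 in OCI-Ly3, 0.31 ± 0.14 in K422 and 0.04 ± 0.21 in DB, or 2.10-fold, 1.47-fold, 1.24-fold and 1.02-fold. When HIP1R was ranked among genes with signal above background in each channel on all 6 arrays of a line, 0.583% of 16457 genes had a higher ratio than HIP1R in HBL-1, 1.96% of 15791 in OCI-Ly3, 8.44% of 16221 in K422 and 41.7% of 14925 in DB. Within a scanning session the ABC line exceeded the GCB line by 0.76 (HBL-1 over K422) and 0.52 (OCI-Ly3 over DB), and the ABC mean exceeded the GCB mean by 0.64. These differences were smaller with the dimmer probe, at 0.42, 0.09 and 0.26, and with the mean over both probes the difference of OCI-Ly3 over DB was 0.30. In RNA of whole cultures, more cells with a transcript and more of it per cell cannot be told apart.

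The dimmer HIP1R probe ran the same way in 3 lines, at 0.80 ± 0.23 in HBL-1, 0.52 ± 0.15 in OCI-Ly3 and 0.38 ± 0.20 in K422, higher on 6 of 6 arrays in each. Normexp fits a model to signals from which background has been subtracted, and here 50 was then added to every signal. With normexp and loess the means of the dimmer probe were 0.47 in HBL-1, 0.31 in OCI-Ly3 and 0.17 in K422, all under 0.5. In DB it spread from -0.36 to 1.67 and its siCtrl signal was well above background on 3 of 6 arrays, so the mean over both probes in DB, 0.23, rests on readings near background. Across the 24 arrays the log2 ratios of the HIP1R probes had a Pearson correlation of 0.44, while their siCtrl levels had one of 0.88. The probes share an array, its labelling and its normalization.

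**Figure D1:**
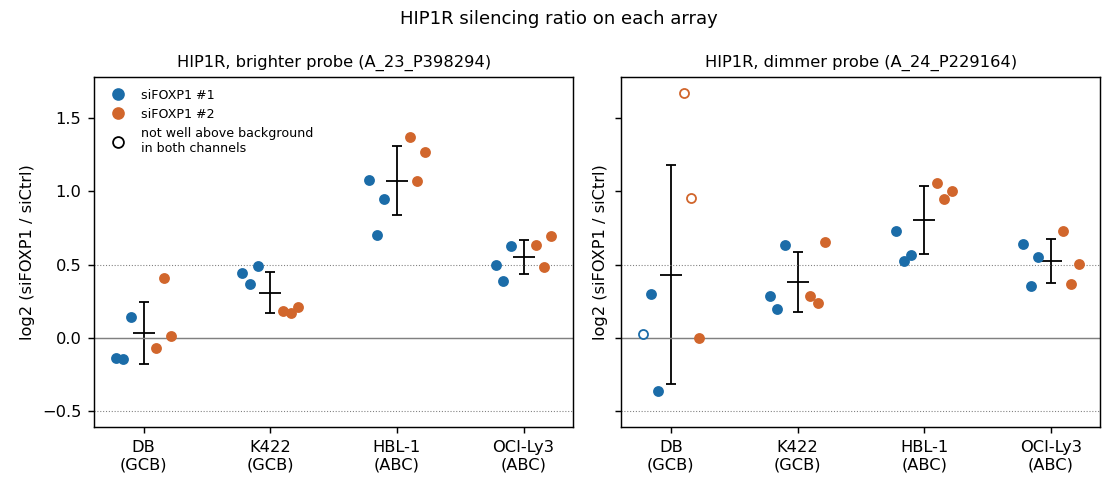
Log2 ratio of siFOXP1 over siCtrl for the 2 HIP1R probes on each of the 24 arrays, by line (horizontal axis) and siRNA (colour), with the mean and SD of the 6 arrays of a line in black and dotted lines at the limit of 0.5. Open points were not well above background in both channels. With the brighter probe all arrays of HBL-1 lie between 0.70 and 1.36 and all of OCI-Ly3 between 0.39 and 0.69, while DB straddles 0.

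The siRNAs differ in strength. A difference was called where its adjusted p over all genes was under 0.05 and its log2 size at least 0.5, or at least 1 for siCtrl levels. FOXP1 fell further with siFOXP1 #2 than with #1 in every line, with a difference of -0.90 on the log2 scale in HBL-1, -0.97 in OCI-Ly3, -0.85 in K422 and -1.40 in DB, and each passed the test. The HIP1R ratio with #2 minus that with #1, taken within each replicate with the brighter probe, was 0.29, 0.36 and 0.32 in HBL-1 and 0.14, 0.10 and 0.07 in OCI-Ly3, above 0 in all 3 replicates of each. It was -0.26, -0.20 and -0.28 in K422, below 0 in all 3, and 0.07, 0.55 and -0.13 in DB. The dimmer probe gave 0.01, 0.05 and 0.02 in K422, 0.32, 0.42 and 0.44 in HBL-1, and 0.08, 0.01 and -0.05 in OCI-Ly3. In DB the dimmer probe gave 1.64, 0.65 and 0.36, partly on readings near background. HIP1R thus had the higher ratio with the stronger siRNA in HBL-1 with both probes. The higher ratio in OCI-Ly3 and the lower ratio in K422 were seen in all 3 replicates with the brighter probe alone. For HIP1 and the clathrin chains, 0 of 16 siRNA differences were called by limma over the 4 lines and 2 had an unadjusted p under 0.05, while of all genes 0.173% were called in HBL-1, 0.192% in OCI-Ly3, 0.159% in K422 and 0.302% in DB.

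**Figure D2:**
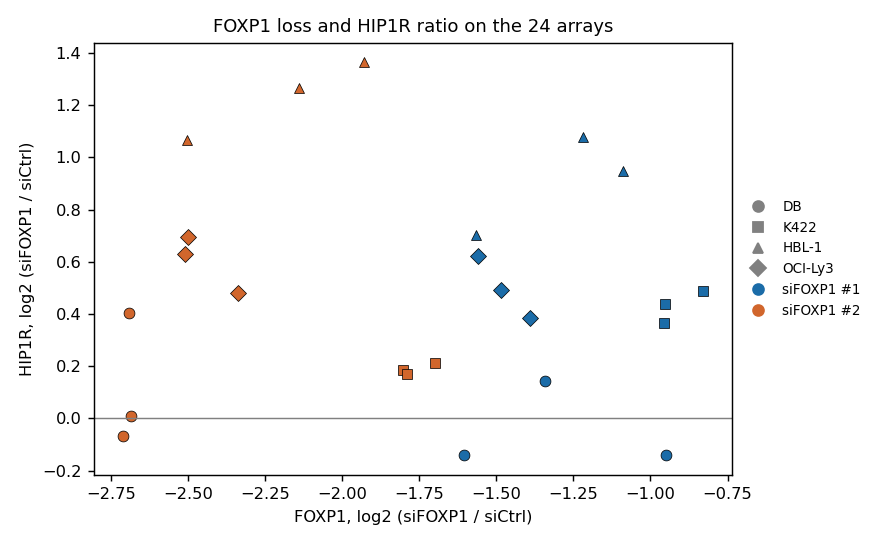
Log2 ratio of HIP1R (vertical axis, brighter probe) against that of FOXP1 (horizontal axis) on the 24 arrays, with the line as the shape and the siRNA as the colour. Points group by line along the vertical axis and by siRNA along the horizontal axis, and the DB arrays with the strongest loss of FOXP1, near -2.70, have HIP1R ratios between -0.07 and 0.41.

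HIP1R also differed between the lines without silencing, in the siCtrl channel, where its brighter probe ran in the order OCI-Ly3, HBL-1, K422 and DB, a description that crosses the scanning sessions. Levels are log2 signals relative to the 75th percentile of the array, and the pair of arrays that share a replicate number were averaged, since their siCtrl RNA may be the same. With the brighter probe, the 3 replicates were at 1.68, 1.85 and 2.08 in OCI-Ly3 and at 1.33, 1.406 and 1.04 in HBL-1. They were at 1.08, 0.40 and 0.22 in K422 and at 0.03, 0.27 and 0.23 in DB. OCI-Ly3 stood clear of the others, HBL-1 and K422 overlapped through replicate 1 of K422, and K422 and DB overlapped. Both arrays of replicate 1 of K422 were high (1.02 and 1.14) against 0.07 to 0.43 on the other 4.

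Within sessions, the mean level of the brighter HIP1R probe in OCI-Ly3 was 3.23 times that in DB (a log2 difference of 1.69) and in HBL-1 1.61 times that in K422 (0.69). Without replicate 1 of K422 the latter difference was 0.95. The dimmer probe stood at -2.35 ± 0.34 (SD, n = 3) in OCI-Ly3, -2.22 ± 0.07 in HBL-1, -3.59 ± 0.57 in K422 and -4.86 ± 0.53 in DB, so that the ABC lines overlapped and lay above the GCB lines. Its differences were 2.51 for OCI-Ly3 over DB and 1.37 for HBL-1 over K422, and with normexp background correction they were 0.83 and 0.92. FOXP1 was also higher in the ABC line of each session, with 1.63 for OCI-Ly3 over DB (adjusted p = 1.54e-07) and 1.32 for HBL-1 over K422 (adjusted p = 1.08e-06).

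HIP1, the other adaptor, gave no called response to silencing in any line with its brightest probe. That probe, from base 59, was dim in every line, at siCtrl levels between -4.76 and -4.11, and its ratios ran from -0.43 to 0.63. The mean was -0.02 ± 0.29 (SD, n = 6 arrays, limma adjusted p = 1) in HBL-1, 0.12 ± 0.33 (adjusted p = 0.627) in OCI-Ly3, 0.24 ± 0.39 (adjusted p = 0.234) in K422 and 0.00 ± 0.26 (adjusted p = 1) in DB. Its siCtrl signal was well above background on 3 of 6 arrays of DB and on 5 or 6 of the others. The widest 95% confidence bound was 0.52, in K422, so a change at the limit of 0.5 lies within the interval there. A dimmer HIP1 probe, A_32_P923734, had a ratio of 0.71 in K422 (adjusted p = 0.0473 over all probes) on readings at background, and 0.10 with normexp and loess. HIP1 and the clathrin chains together made 16 such tests, of which 0 were called, 5 had an adjusted p under 0.05 and 6 an unadjusted p under 0.05, and the methods' t-test also called 0. Over all genes 9.9% were called in HBL-1, 4.42% in OCI-Ly3, 4.44% in K422 and 2.16% in DB.

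The HIP1 probes disagreed in which lines carried the transcript. The probe from base 2977 was well above background in the siCtrl channel on all 6 arrays of OCI-Ly3, on 3 of HBL-1, on none of K422 and on none of the 5 arrays of DB that were used. Its replicates were between -2.01 and -1.79 in OCI-Ly3 and at -5.43, -5.03 and -6.33 in HBL-1. They were at -5.98, -7.10 and -7.29 in DB and at -7.45, -7.78 and -7.58 in K422, with 1 outlier spot of DB left out. The 3 replicates of OCI-Ly3 thus lay far above those of DB in the same session, and those of HBL-1 lay above those of K422. In OCI-Ly3 it was at least 6.62-fold higher than in DB, counting the dim side at the lowest signal well above background, with a measured difference of 4.86 ± 0.36 (SE, limma adjusted p = 6.84e-07 over all probes). For HBL-1 over K422 the measured difference was 2.01 (adjusted p = 0.00081), with 3 of 6 arrays of HBL-1 and none of K422 well above background, and no fold can be given. Over all probes 26.8% were called for OCI-Ly3 over DB and 26% for HBL-1 over K422. With normexp both calls were lost, at 1.22 (adjusted p = 0.293) and 0.50 (adjusted p = 0.873), each with an SE of 0.62. Bright probes had higher adjusted p in that setting too. CLTA for HBL-1 over K422 went from 0.67 (adjusted p = 0.000256 over all probes) to 0.58 (adjusted p = 0.155).

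The farthest HIP1 probe downstream, A_24_P363548 from base 6336 (chr7:75002188-75002247), was well above background on 2 arrays of OCI-Ly3 and on no other array. On such readings it was called for OCI-Ly3 over DB, at 1.96 (limma adjusted p = 3.18e-05 over all probes), the direction of the probe from base 2977. For HBL-1 over K422 it gave -0.08 (adjusted p = 0.899). With normexp its call was lost, at 0.08 (adjusted p = 0.95). A_32_P923734 (chr7:75205410-75205469), which lists AK094866 as the probe from base 59 also does, was well above background on no array. The probe from base 59 gave, over all genes, 0.54 ± 0.22 (adjusted p = 0.0792) for OCI-Ly3 over DB and 0.16 ± 0.22 (adjusted p = 0.658) for HBL-1 over K422. Of the 8 siCtrl differences of HIP1 and the clathrin chains read with their brightest probes, 0 were called and 3 had an adjusted p under 0.05, where 25.8% of all genes were called for OCI-Ly3 over DB and 25.7% for HBL-1 over K422. The mean over the 4 HIP1 probes was called for OCI-Ly3 over DB, at 1.83 (adjusted p = 7.22e-06), while the brightest was not. In OCI-Ly3, where the probe from base 2977 could be measured, its silencing ratios were -0.08, 0.18 and -0.12 with siFOXP1 #1 and -0.12, -0.24 and -0.30 with #2, a mean of -0.11 ± 0.17. OCI-Ly3, which had the highest siCtrl levels of this HIP1 probe and of the brighter HIP1R probe, thus had HIP1R ratios above 0 on all 6 arrays and HIP1 ratios on both sides of 0.

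**Figure D3:**
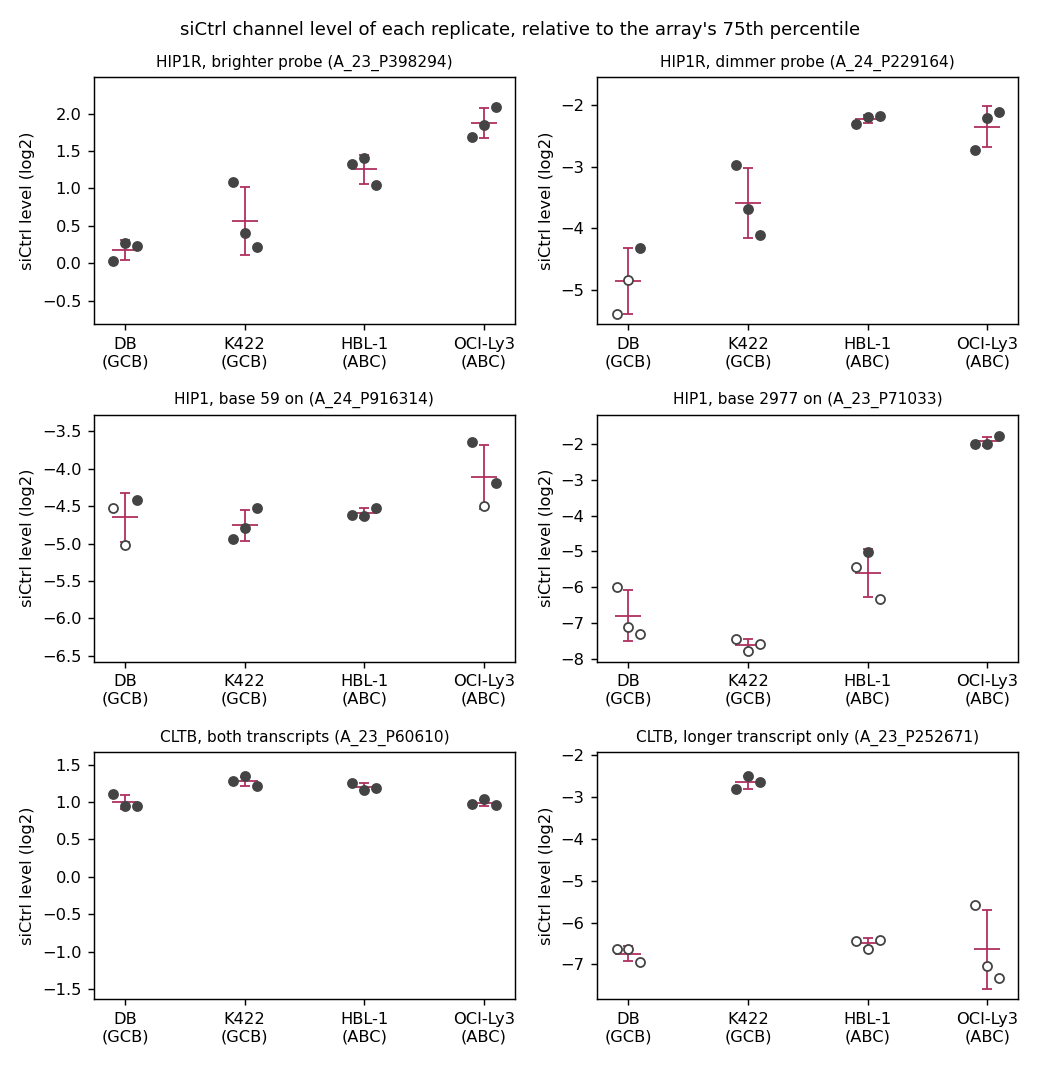
siCtrl channel level (vertical axis, log2 signal relative to the 75th percentile of the array) in the 4 lines for 6 probes, with 1 point for each replicate (the mean of its arrays) and the mean and SD of the 3 replicates in red. Open points had at least 1 array not well above background, and each panel has its own axis, since levels of different probes are not comparable. HIP1 from base 2977 stands out in OCI-Ly3, near -1.93, and the probe of the longer CLTB transcript in K422, near -2.65.

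The clathrin light chain CLTA, well above background on every array, had ratios close to 0. Its ratios ran from -0.17 to -0.04 in DB, below 0 on all 6 arrays, with a mean of -0.10 ± 0.05 (SD, n = 6 arrays, limma adjusted p = 0.0439), under the limit of 0.5. The means were 0.04 ± 0.09 in HBL-1, -0.02 ± 0.05 in OCI-Ly3 and -0.01 ± 0.06 in K422, with adjusted p of 0.308 or more. Its siCtrl level was higher in the ABC line of each session, 1.49-fold for OCI-Ly3 over DB (log2 0.57 ± 0.10 SE, adjusted p = 0.000768) and 1.59-fold for HBL-1 over K422 (0.67 ± 0.10, adjusted p = 0.000272), both short of the limit of 1. No replicate of a GCB line reached one of its partner. With normexp and median centring its silencing ratios ran from -0.23 in HBL-1, where the direction turned, to -0.11 in OCI-Ly3, and with loess that in DB was -0.01.

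CLTB, the other light chain, had small ratios above 0 in 3 lines, short of a call. The probe for both transcripts gave 0.17, 0.37 and 0.32 with siFOXP1 #1 and 0.00, 0.02 and 0.16 with #2 in DB. In K422 the ratios ran from 0.02 to 0.39 and in HBL-1 from 0.05 to 0.29, above 0 on all 6 arrays of each. The means were 0.17 ± 0.09 (SD, n = 6 arrays, limma adjusted p = 0.017) in HBL-1, 0.04 ± 0.12 (adjusted p = 0.65) in OCI-Ly3, 0.18 ± 0.15 (adjusted p = 0.0168) in K422 and 0.17 ± 0.15 (adjusted p = 0.035) in DB, or between 1.03-fold and 1.14-fold, all under the limit. With normexp and median centring they were -0.10 in HBL-1, where the direction turned, 0.06 in K422 and 0.05 in DB. The siCtrl level of that probe differed little within sessions, by -0.01 ± 0.10 (SE, adjusted p = 0.959) for OCI-Ly3 over DB and by -0.07 ± 0.10 (adjusted p = 0.649) for HBL-1 over K422.

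The probe for the longer CLTB transcript alone read high in K422. It was well above background on all 6 siCtrl arrays of K422, on 1 of OCI-Ly3 and on none of DB and HBL-1. In K422 its replicates were at -2.81, -2.50 and -2.65, while the other 9 replicates lay between -7.32 and -5.57. In K422 it was at least 7.74-fold higher than in HBL-1, counting the dim side at the lowest signal well above background, with a measured difference of -3.84 ± 0.36 (SE, limma adjusted p = 4.84e-06 over all probes) for HBL-1 over K422. With normexp the call was lost, at -0.71 (adjusted p = 0.739). Its silencing ratios in K422 were 0.12, 0.24 and 0.26 with #1 and -0.03, 0.24 and 0.37 with #2, a mean of 0.20 ± 0.14, close to that of the probe for both transcripts there. CD3D and CD3G were also measured in K422 alone, and whether they bear on this reading was not tested.

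The heavy chain CLTC had ratios between -0.22 and 0.24. The means were 0.08 ± 0.11 (SD, n = 6 arrays, limma adjusted p = 0.0931) in HBL-1, 0.04 ± 0.08 (adjusted p = 0.466) in OCI-Ly3, 0.12 ± 0.07 (adjusted p = 0.0219) in K422 and -0.03 ± 0.12 (adjusted p = 0.768) in DB. All 6 arrays of K422 were above 0, from 0.04 to 0.22. With normexp and median centring the means were below 0 in every line, at -0.33 in HBL-1, -0.18 in OCI-Ly3, -0.24 in K422 and -0.29 in DB. With normexp and loess they were 0.08 in HBL-1, 0.02 in OCI-Ly3, 0.10 in K422 and -0.04 in DB. The direction of CLTC thus depends on the normalization. In siCtrl cells CLTC was 1.39-fold higher in HBL-1 than in K422 (log2 0.48 ± 0.11 SE, adjusted p = 0.00511) and differed by -0.09 ± 0.11 (adjusted p = 0.64) between OCI-Ly3 and DB. CLTCL1, the gene of a second heavy chain, was higher on 6 of 6 arrays of HBL-1, with a ratio of 0.50 ± 0.12 (adjusted p = 0.00224) that was just short of the limit, while it was at 0.08 in OCI-Ly3, 0.21 in K422 and 0.01 in DB. With the slide as a block it was called, at 0.52.

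For HIP1 and the clathrin chains the difference between the ABC and the GCB lines in the silencing ratio was small. The intervals below rest on the spread of arrays within a line and siRNA. They do not hold the spread between lines of a subtype, so they apply to these lines alone. The ABC minus GCB difference was -0.07 for HIP1 (95% confidence interval -0.35 to 0.21), 0.07 for CLTA (0.00 to 0.13), -0.07 for CLTB (-0.18 to 0.04) and 0.02 for CLTC (-0.06 to 0.09). Of the 12 differences tested between lines or subtypes in these 4 genes, 0 were called and 1 had an unadjusted p under 0.05, where 2.26% of all genes were called for ABC over GCB, 1.43% for OCI-Ly3 over DB and 4.34% for HBL-1 over K422.

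**Figure D4:**
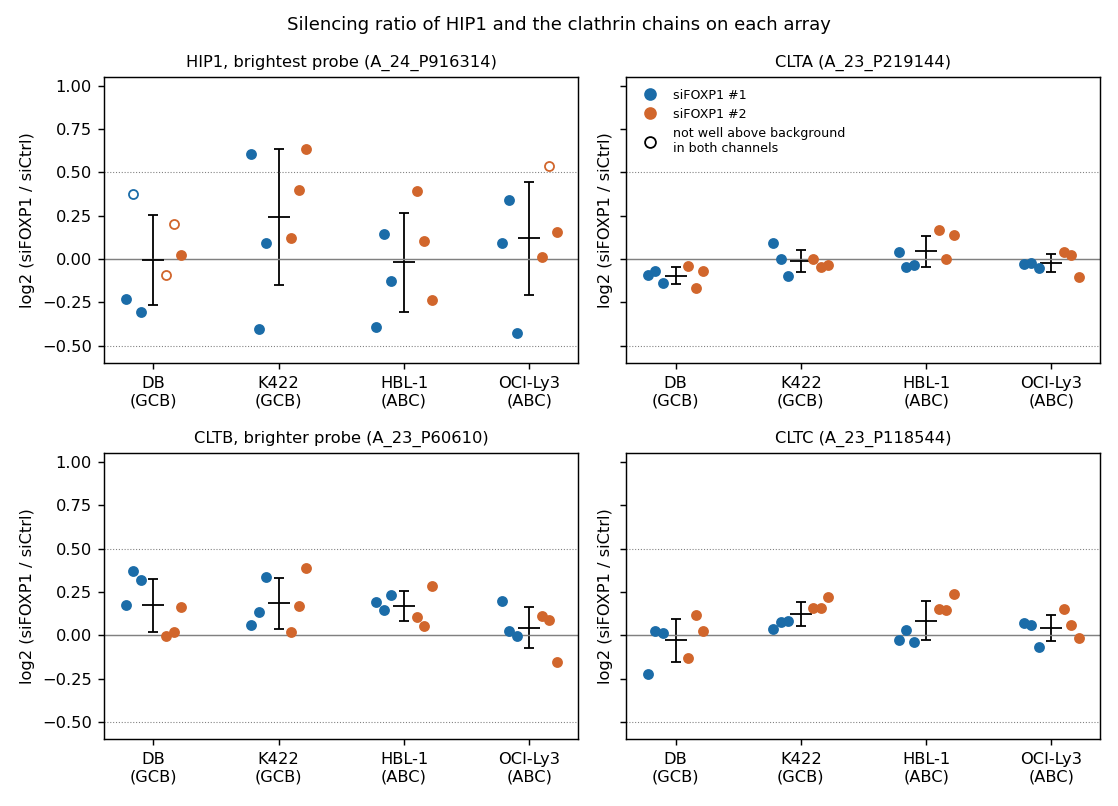
Log2 ratio of siFOXP1 over siCtrl for HIP1 (brightest probe), CLTA, CLTB (probe for both transcripts) and CLTC on each array, by line and siRNA, with the mean and SD of 6 arrays in black, dotted lines at the limit of 0.5 and open points not well above background in both channels. HIP1 scatters from -0.43 to 0.63, while CLTA stays within 0.17 of 0.

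A list of 75 genes that act with these adaptors was drawn up from general knowledge, and all 75 were on the array. Earlier results of these data were known when it was drawn up, so its counts are a description. After silencing 10 of them were called higher and 1 lower in HBL-1, 3 higher and 2 lower in OCI-Ly3, 3 higher and 2 lower in K422, and 1 higher and 1 lower in DB. The share of all genes called higher was 5.73% in HBL-1, 2.8% in OCI-Ly3, 2.34% in K422 and 1.33% in DB, and the share called lower was 4.17%, 1.62%, 2.1% and 0.829%. The median log2 ratio of the list was 0.09 in HBL-1, 0.08 in OCI-Ly3, 0.15 in K422 and 0.05 in DB, against 0 for all genes. The values for all genes include genes at background. Of the 75, 64 in HBL-1, 58 in OCI-Ly3, 54 in K422 and 56 in DB were well above background in at least 1 channel on all 6 arrays. Genes of like signal were not compared. Of the 75 genes 57 were called in no line, and none was called in opposite directions. With normexp background correction and loess, 3 genes were called higher in HBL-1, 1 in K422 and 0 in the other lines, and none lower.

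AP2A1, which encodes the large alpha subunit of AP-2, was the only gene of the list called in all 4 lines. Its ratio was 0.68 ± 0.22 (SD, n = 6 arrays, limma adjusted p = 1.88e-06) in HBL-1, 0.56 ± 0.16 (adjusted p = 4.8e-05) in OCI-Ly3, 0.64 ± 0.19 (adjusted p = 1.24e-05) in K422 and 0.65 ± 0.17 (adjusted p = 2.6e-05) in DB, higher on all 24 arrays. With normexp and loess it was between 0.35 and 0.48 with adjusted p of 0.00069 or less, under the limit in every line. Since the ratio was alike in all lines and the dyes were never swapped, a dye bias of its 1 probe cannot be told apart from silencing. A further 6 genes of the list, to make 7 with AP2A1, had ratios above 0 with an adjusted p under 0.05 in every line, and these were chosen after their values were seen. Of these, DNM2 (0.25 in DB, 0.43 in K422, 0.59 in HBL-1, 0.35 in OCI-Ly3) and INPPL1 (0.28, 0.48, 0.52 and 0.42 in that order) were above 0 on all 24 arrays and passed the limit in HBL-1, while ARPC1A, ARPC4 and GAK passed it in no line and WIPF1 in K422.

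Among the other 26 genes of the list of AP-2 subunits and clathrin adaptors, STON1, an AP-2 partner, rose in HBL-1 by 1.22 ± 0.78 (adjusted p = 0.000169), where siFOXP1 #1 alone gave 0.68 (adjusted p = 0.131). EPS15, a ubiquitin-binding adaptor, rose there by 0.53 ± 0.28 (adjusted p = 0.000516) and NECAP2, an AP-2 binder, by 0.54 ± 0.09 (adjusted p = 2.59e-07). ITSN1, a scaffold of the coated pit, fell in K422 (-0.52 ± 0.36, adjusted p = 0.00358) and OCI-Ly3 (-0.69 ± 0.29, adjusted p = 0.000411). Its other probe gave -0.20 and 0.40 in those lines, and without replicate 3 of K422 the call there was lost, at -0.34 (adjusted p = 0.103). In all, 4 of 27 genes of that list rose in HBL-1 and 1 in each other line. With normexp and loess STON1 was at 0.22 in HBL-1 and ITSN1 at -0.24 in K422 and -0.37 in OCI-Ly3, none of them called.

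Of 17 genes of endocytic actin assembly, CTTN, encoding cortactin, which HIP1R binds, rose in OCI-Ly3 and HBL-1. In OCI-Ly3 its ratios were 1.25, 1.38 and 1.27 with siFOXP1 #1 and 0.65, 0.81 and 0.68 with #2, so the siRNA with the smaller loss of FOXP1 gave the larger values. The mean was 1.01 ± 0.33 (SD, n = 6 arrays, limma adjusted p = 9.58e-07) there and 0.51 ± 0.15 (adjusted p = 0.000259) in HBL-1, where leaving out replicate 1 or 2 brought it to 0.50, just under the limit. In K422 it was 0.19 ± 0.09 (adjusted p = 0.172), and in DB it was 0.01 ± 0.45 (adjusted p = 1) with signal above background on 3 of 6 arrays. WAS, an activator of the Arp2/3 complex, rose in HBL-1 (0.58 ± 0.21, adjusted p = 0.000139), and WIPF1, its binding partner, in K422 (0.77 ± 0.14, adjusted p = 7.99e-09). WIPF1 was at 0.46 (adjusted p = 1e-06) in HBL-1, 0.45 (adjusted p = 4.33e-06) in OCI-Ly3 and 0.18 (adjusted p = 0.0169) in DB, under the limit, and its other probe gave 0.77 in K422 and 0.60 in HBL-1. With normexp and loess CTTN was at 0.49 in OCI-Ly3 and 0.26 in HBL-1, both under the limit. With normexp and median centring WAS was at 0.34 in HBL-1 (limma adjusted p = 0.0721).

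Among 19 genes of membrane fission and uncoating, DNM2, the dynamin of most cells, rose in HBL-1 by 0.59 ± 0.11 (limma adjusted p = 1.15e-07) and DNM3 by 0.69 ± 0.41 (adjusted p = 0.00127). SNX9, which recruits dynamin, rose in OCI-Ly3 (0.55 ± 0.15, adjusted p = 0.000856). PACSIN1 rose in K422 (0.68 ± 0.26, adjusted p = 0.00246) and PACSIN3 fell in HBL-1 (-0.64 ± 0.17, adjusted p = 0.000411). With normexp and loess DNM3 was at 0.19, SNX9 at 0.41, PACSIN1 at 0.33 and PACSIN3 at -0.41 in those lines, all under the limit. With normexp and median centring DNM2 was at 0.33 in HBL-1 (limma adjusted p = 0.105). SNX18 was called lower in DB on readings that were at background on all 6 arrays.

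Of 5 phosphoinositide enzymes, PIP5K1C, which makes the lipid that these adaptors bind, was called in HBL-1 (0.57 ± 0.25, adjusted p = 0.00433, higher on all 4 arrays left after 2 outlier spots), as was the lipid phosphatase INPPL1 (0.52 ± 0.12, adjusted p = 1.07e-05). With normexp and loess PIP5K1C was at 0.38, without replicate 1 of HBL-1 it was at 0.49, and without replicate 3 INPPL1 was at 0.48, both under the limit. With normexp and median centring INPPL1 was at 0.29 (limma adjusted p = 0.109) and PIP5K1C at 0.16 (adjusted p = 0.396) in HBL-1. Of 5 cargo receptors taken up through clathrin, none was called higher in any line, and SORT1 was called lower in OCI-Ly3 at background. Neither of the HIP1 partners listed was called in any line.

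**Figure D5:**
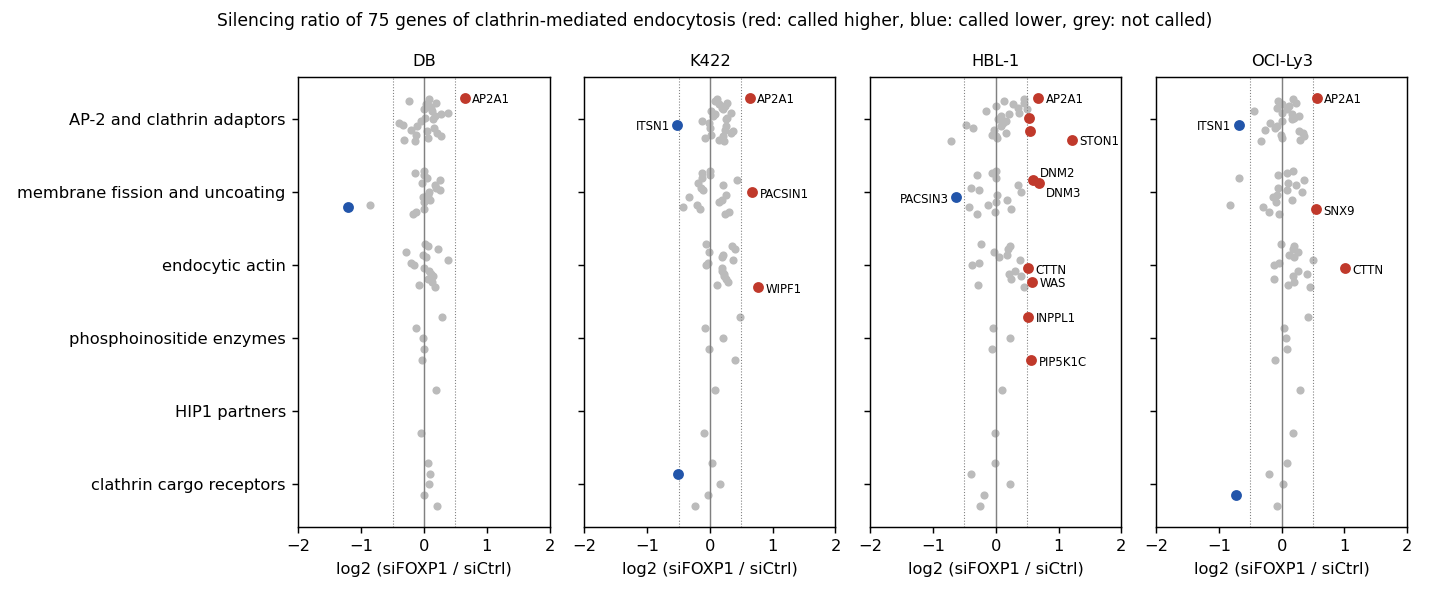
Log2 ratio of siFOXP1 over siCtrl (horizontal axis, mean of 6 arrays) of the 75 genes by list and line, in red where called higher, in blue where called lower and in grey otherwise, with dotted lines at the limit of 0.5. Names mark called genes well above background in the first 4 lists, at most 2 in each direction, list and line. HBL-1 has 10 red points, and AP2A1 is red in all 4 lines, between 0.56 and 0.68.

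In siCtrl cells, 21 of the 75 genes were higher and 12 lower in OCI-Ly3 than in DB, and 19 were higher and 4 lower in HBL-1 than in K422. Of all genes, those at background included, 14.1% and 11.7%, and 12.4% and 13.3%, were called. Of the 17 actin genes, 10 were higher and 0 lower in OCI-Ly3 than in DB, with a median log2 difference of 1.08 against 0.03 for all genes. In HBL-1 over K422, 1 was higher and 2 lower. CTTN differed in opposite directions, by 1.61 (adjusted p = 5.37e-07) for OCI-Ly3 over DB and by -2.08 (adjusted p = 6.98e-08) for HBL-1 over K422.

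The genes whose ratios over the 24 arrays were most like those of the brighter HIP1R probe included FGD3, ZNF525, an unnamed transcript read by A_24_P145787, and LHFPL2, with Pearson correlations between 0.90 and 0.92 among 14936 genes with a median of 0.02. After the means of the 8 combinations of line and siRNA were taken away, the correlation was 0.51 for FGD3, 0.72 for ZNF525, 0.75 for A_24_P145787 and 0.11 for LHFPL2. FGD3 had mean ratios of 1.27 in HBL-1, 0.83 in OCI-Ly3, 0.60 in K422 and 0.39 in DB, and LHFPL2 had 3.63, 1.39, 0.76 and 0.34, in the same order of lines as HIP1R. The most opposite were GGH (-0.90) and CR613972 (-0.88). HIP1 (-0.13), CLTA (0.61), CLTB (-0.11) and CLTC (0.36) were less like it, and the value for CLTA was -0.15 once the means were taken away. The arrays share lines, siRNAs and sessions, and these values are descriptions over 24 arrays.

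Of 5 transcripts within 100 kb of the HIP1R probes, only DENR was well above background on all arrays of every line, and its ratio of -0.23 ± 0.14 (limma adjusted p = 0.000651) in HBL-1 ran opposite to that of HIP1R. It was 0.21 ± 0.15 (adjusted p = 0.00615) in DB, -0.15 ± 0.11 (adjusted p = 0.0262) in K422 and -0.02 ± 0.06 (adjusted p = 0.847) in OCI-Ly3, all under the limit. VPS37B, AK022083, CCDC62 and ABCB9 were at background on at least 4 of 6 arrays of each line. CCDC62 was called lower in K422 and HBL-1 on such readings.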

How the data were processed

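RNA of 24 hybridisations was measured on 60-base probes. The authors deposited Feature Extraction output (version 10.5.1.1 for the session of DB and OCI-Ly3, 10.7.3.1 for the other), which gives the intensity of each dye and the log10 ratio (Cy5 to Cy3) that the software computes once it has subtracted background and balanced the dyes of an array. The authors also deposited a matrix of log2 ratios of Cy3 over Cy5, and the correlation of these with the ratios used here was 0.804 to 0.998. The sign and base of the log10 ratio were changed to give the log2 of siFOXP1 over siCtrl, 1639 control spots and between 113 and 469 outlier spots an array were left out, repeated spots were averaged to their probe, and the brightest probe stood for a gene. For spots at background the software can set a ratio to 0 or use a surrogate signal, so such readings say little. Coordinates are hg18 as in the files, and promoters are RefSeq's.

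A mean for each line and siRNA was fitted over all arrays (limma 3.58.1 in R 4.3.3), with Benjamini-Hochberg adjustment over all genes. Calls were made at adjusted p values under 0.05 with a log2 change of at least 0.5, or of 1 for siCtrl levels, which were scaled to the 75th percentile and averaged over the arrays of a replicate number, giving n = 3 per line. The fits were tested on simulated data. The members and lists were chosen with earlier results of these data known, and the siCtrl contrasts of single probes and of the listed genes were added after seeing the data. Named genes are FOXP1, CLTCL1, genes within 100 kb of HIP1R, the 5 most like it and the 2 least, and, for each list and line, at most 2 called risers and 2 called fallers well above background, less some that are not reported here; EPS15, NECAP2, SNX18, SORT1 and the siCtrl values of CTTN were named after their values were seen.

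Replicate numbers were taken as pairing arrays, since the study describes independent experiments and same-numbered arrays deviated together. Same-numbered arrays of a line were also always on the same slide, and what the slide adds to their correlation was not tested. The correlation of deviations within a pair was 0.114 to 0.573 over genes measured above background with both dyes, and 0.0468 to 0.284 over all genes. The replicates were separate experiments per the methods, but how RNA was shared between arrays is not given in the sources used here. The number of arrays limits the precision.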

Additional observations from a re-analysis of the deposited data

Results flagged for a closer look

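Among 84 groups of 6 arrays checked for an array far from the others, 4 stood out, where chance gives about 1 in 20, and none was of a member. They were FGD3 in DB with siFOXP1 #1 replicate 3 (0.88, others 0.11 to 0.39), ZNF525 in DB with #2 replicate 2 (0.15, others -0.03 to 0.00), and A_24_P145787 in DB with #2 replicate 2 (0.33, others -0.02 to 0.01) and in OCI-Ly3 with #2 replicate 3 (0.34, others 0.13 to 0.20). The DB arrays of #2 replicate 2 and of #1 replicate 3 were also the highest and the next highest for the brighter HIP1R probe in DB (0.41 and 0.14). FGD3, ZNF525 and A_24_P145787 had been picked for ratios like those of that probe on these same arrays, so this is no separate observation.

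Of 48 differences between lines or subtypes in the named genes of the lists, CLTCL1 and DENR, 6 passed the limits in the fit over all genes. The genes of the lists had been named because they were called in at least 1 line, so these differences are no independent tests and are given as values. CTTN had higher ratios in the ABC lines than in the GCB lines, by 0.66, and in OCI-Ly3 than in DB by 1.00. STON1 differed by 0.83 between subtypes and by 1.07 for HBL-1 over K422, DNM3 by 0.87 for HBL-1 over K422, and SNX9 by 0.55 for OCI-Ly3 over DB. STON1 and DNM3 were at background in DB and K422, and SNX9 was so on all arrays of DB.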

How the results depend on the processing

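The HIP1R ratio in HBL-1 fell to 0.81 with normexp and median centring, and with the mean over probes the HIP1R difference was 0.45 for ABC over GCB and 0.30 for OCI-Ly3 over DB. The mean over probes also gave siCtrl differences past the limit for CLTB (-1.96) in HBL-1 over K422 and for HIP1 (1.83) in OCI-Ly3 over DB, and a value of 1.03 for HIP1R in HBL-1 over K422. Leaving out a replicate kept the HIP1R ratio between -0.01 and 0.10 in DB, 0.50 and 0.61 in OCI-Ly3, 0.29 and 0.33 in K422, and 1.00 and 1.16 in HBL-1. With the replicate block, which pairs arrays, the ratios of the members stayed as they were by construction, and the CLTB log2 ratio in HBL-1 kept 0.17 (limma adjusted p = 0.00164, against 0.017 in the main fit). No call of HIP1 or a clathrin chain and no count of listed genes changed. The block takes differences between replicates out of the error, so these unchanged calls are no check on the pairing. The main fit counted the 6 arrays of a line separately, although same-numbered arrays deviated together. With the arrays of a replicate averaged, ITSN1 in K422 kept -0.52 but was not called (limma adjusted p = 0.0532).

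Counts of listed genes moved most. With normexp and loess, 0 rose and 0 fell in DB, 0 and 0 in OCI-Ly3, 1 and 0 in K422, and 3 and 0 in HBL-1. With median centring these were 0 and 0, 0 and 0, 1 and 1, and 0 and 6, in the same order of lines. The deposited matrix gave 2 lower in DB and 4 in OCI-Ly3, and the mean over probes 0 lower in OCI-Ly3, 0 in K422 and 2 in HBL-1. Averaging the arrays of a replicate gave 0 lower in K422, each line alone 0 lower in DB and 1 in K422, and the methods' t-test 0 lower in DB and 1 in K422. With siFOXP1 #1 alone 2 rose and 2 fell in DB, and with #2 alone 2 rose in DB, 0 fell in K422 and 3 fell in HBL-1. Without 1 replicate, 1 to 2 rose and 1 to 2 fell in DB, 0 to 2 fell in K422 and 1 to 2 fell in HBL-1. Dim probes such as those of HIP1 limit what these arrays can show, and the cause of these shifts was not tested.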
